A study of Mus musculus with 12 samples.

Results

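Splicing factors and heterogeneous nuclear ribonucleoproteins (hnRNPs) were followed in mouse resting B (RB) cells under 6 conditions. Members were the genes whose symbol on the array began with Hnrnp, Hnrp, Sfrs, Srsf, Snrp, Sf3a or Sf3b. This gave 58 genes with 100 probes, out of 61307 probes and 29411 gene symbols on the array (probes for noncoding RNA left out of the latter). They comprised 21 hnRNP genes, 17 SR and SR-related genes, 12 genes of small nuclear ribonucleoprotein (snRNP) proteins and 8 genes of the SF3A and SF3B complexes. The array uses symbols of its time, and all 58 were matched to a RefSeq entry, 22 of them under another current symbol. Of the SR group, Sfrs1 to Sfrs7, Sfrs9 and Sfrs11 are now Srsf genes, whereas Sfrs8 (Sfswap), Sfrs12 (Srek1), Sfrs12ip1 (Srek1ip1), Sfrs14 (Sugp2), Sfrs15 (Scaf4), Sfrs16 (Clasrp), Sfrs17b (Akap17b) and Sfrs2ip (Scaf11) have left that family by name. Hnrnpa1l2 is now listed as a pseudogene, so its probe may share signal with Hnrnpa1.

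RB cells came from spleens of BALB/c mice, labelled as female and 6 weeks old, by negative selection of CD43-bearing cells, and were cultured for 4 h. The conditions were no stimulus, Pam2CSK4 (a lipopeptide that engages TLR-2, written Pam2csk4 in the labels), anti-CD86 antibody, both of these (TLR2.CD86), anti-CD40 antibody, and anti-CD40 with Pam2CSK4. The methods give Pam2CSK4 at 50 ng/ml, and no dose of anti-CD40 was taken from them. Each condition had 2 arrays. A legend of the study calls its microarray replicates biological, but neither it nor the labels say whether separate mice or separate cultures are meant, so that p-values measure only the spread between these arrays.

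Splicing removes introns from pre-mRNA in the spliceosome. Most of its snRNPs carry a ring of Sm proteins around a small nuclear RNA, and the SF3A and SF3B complexes belong to the U2 snRNP that holds the branch site. SR proteins and hnRNPs bind exons and introns and favour or repress the use of nearby splice sites. In lymphocytes these regulators are known for isoform choice of the CD45 surface phosphatase and for the switch between membrane and secreted immunoglobulin.

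All values are log2 processed intensities minus the 75th percentile of the array, so that 0 is the level of that percentile and a difference of 1 is a doubling relative to it. A probe's brightness also depends on its sequence, and levels were therefore compared between conditions and never between genes. Each gene was given by its brightest probe. A change was called at an adjusted p under 0.05 (limma, Benjamini-Hochberg over all 31599 probes tested). Of the 58 members, Snrpn was not well above background on any of 12 arrays and was not tested. The brightest probes of Hnrnpa3, Hnrnpab, Hnrnpf and Hnrnpk were saturated on all 12 arrays and give no fold. The remaining 53 members carry the counts, and among these Hnrnpu was saturated on 2 arrays and Sfrs17b was well above background on 11.

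The arrays lay on 2 slides. Of the 12, 8 were on slide 1. Unstimulated cells and anti-CD40 with Pam2CSK4 had both their arrays there, and each other condition had 1 array on each slide. With the slide as a term, 38 of 53 members differed between slides, against 57.2% of all probes, and 37 of the 38 were lower on slide 2. The median difference was -0.20 for members and -0.13 for all probes. Comparisons of the 4 split conditions with unstimulated cells, or with anti-CD40 with Pam2CSK4, therefore carry a slide difference, as do the interactions. Their counts are given without and with the slide as a block (the slide-blocked fit, which estimates folds after removing a slide term). Folds are from the fit without the block unless stated. The fold of anti-CD40 with Pam2CSK4 against unstimulated cells lies within slide 1 and is the same number in both fits. The 10 B cell markers chosen were well above background on all arrays. Their summed level (in units of the array's 75th percentile) was 678 to 781 with anti-CD40 and Pam2CSK4 and 495 to 645 in the other conditions. The 7 myeloid markers summed to 466 to 497 in unstimulated cells and 323 to 464 in stimulated cells, the 8 T cell markers to 34.3 to 35.0 and 22.7 to 32.2, and the 5 NK cell markers to 15.3 to 15.6 and 8.63 to 13.3. The 4 plasma cell markers summed to 19.7 to 19.8 in unstimulated cells, 20.5 to 26.0 with Pam2CSK4, anti-CD86 or both, and 37.9 to 44.9 in the 2 anti-CD40 conditions. The 4 liver genes on the array, none well above background on all arrays, summed to 6.58 to 6.69 in unstimulated cells and 0.281 to 0.412 with anti-CD40 and Pam2CSK4. The part of such other cells or tissue in the results was not tested, and in bulk RNA fewer cells of a type cannot be told apart from less RNA per cell.

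The sequences below are those that the main results rest on. Array probes were 60 bases long, and the first 30 bases are shown for the pair of brightest probes of 5 genes. In Hnrnpa0 and Snrpd3 both probes had folds of the same sign with anti-CD40 and Pam2CSK4, and in Hnrnpa1, Sfrs11 and Snrpa of opposite sign. The deposited annotation leaves these probes without a genome position.
Hnrnpa0 brightest probe: tcgttctagaagccgggttccggatgccgg
Hnrnpa0 second probe: agaaggcggagatcattgccgacaagcagt
Snrpd3 brightest probe: gtgggatgggacgtgggaacatcttccaga
Snrpd3 second probe: atgttaaagagcatgaaaaataaaaaccaa
Hnrnpa1 brightest probe: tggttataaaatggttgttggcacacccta
Hnrnpa1 second probe: atttggcaatgatggaagcagttttggagg
Sfrs11 brightest probe: cagtagtatcttatgcacagtgattccatg
Sfrs11 second probe: agtccctgatttctgccgctattgagccag
Snrpa brightest probe: tgcacctggcgctgttagattgtgattaaa
Snrpa second probe: tgggtgccatgacattgccttcgtggagtt

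Promoters (RefSeq, GRCm38.p6, 300 bases that end just inside the transcript) are shown for the 3 members with the highest called folds with anti-CD40 and Pam2CSK4. Capitals mark GC boxes (GGGCGG or CCGCCC) and CCAAT boxes (CCAAT or ATTGG), which overlap in Snrpd3.
Hnrnpa0 promoter, chr13:58128507-58128806, minus strand: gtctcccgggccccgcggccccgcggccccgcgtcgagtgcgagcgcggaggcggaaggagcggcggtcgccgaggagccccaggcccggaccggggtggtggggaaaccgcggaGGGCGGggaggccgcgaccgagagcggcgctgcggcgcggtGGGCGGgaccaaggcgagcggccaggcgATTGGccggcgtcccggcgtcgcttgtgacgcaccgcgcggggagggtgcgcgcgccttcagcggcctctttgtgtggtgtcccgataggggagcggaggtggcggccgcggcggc
Sf3b3 promoter, chr8:110846754-110847053, minus strand: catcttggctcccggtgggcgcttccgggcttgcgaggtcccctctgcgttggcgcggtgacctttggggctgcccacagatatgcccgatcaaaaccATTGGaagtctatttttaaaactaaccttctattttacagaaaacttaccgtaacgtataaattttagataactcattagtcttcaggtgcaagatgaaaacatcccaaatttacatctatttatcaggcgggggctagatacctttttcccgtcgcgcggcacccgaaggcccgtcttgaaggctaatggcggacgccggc
Snrpd3 promoter, chr10:75517792-75518091, plus strand: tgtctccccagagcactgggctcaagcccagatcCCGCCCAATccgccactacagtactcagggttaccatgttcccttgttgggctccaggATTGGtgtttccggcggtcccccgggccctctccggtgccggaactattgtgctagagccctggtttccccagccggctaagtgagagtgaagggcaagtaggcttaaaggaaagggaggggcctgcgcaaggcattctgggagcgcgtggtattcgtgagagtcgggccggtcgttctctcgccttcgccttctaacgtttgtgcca
A GC box was in 67.6% of the 71 promoters listed for 51 members and in 35.7% of all 32851 promoters. A CCAAT box was in 40.8% and 37.4%, and the E-box CACGTG, read alike on both strands, in 11.3% and 7.15%. None of the 3 promoters shown held an E-box. A match describes the letters of the window and no site.

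Among the 6 conditions, 8 of 53 members differed (limma's F test over the 5 differences), which is 15.1% against 20.4% of all probes. These were Hnrnpa0, Hnrnpa1, Hnrnph3, Hnrnpr, Sfrs3, Snrpa1, Snrpd1 and Snrpd3. In the slide-blocked fit 40 members differed (75.5%), against 60.0% of all probes. Without the block, the count was 2 and 1 when either array of anti-CD40 with Pam2CSK4 was left out, and 3 when either unstimulated array was. It was 5 and 4 without the slide 1 or slide 2 array of anti-CD86, and 13 without the slide 1 array of anti-CD40. Scaling arrays to their median in place of the 75th percentile called no member here or in any comparison below.

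**Figure D1:**
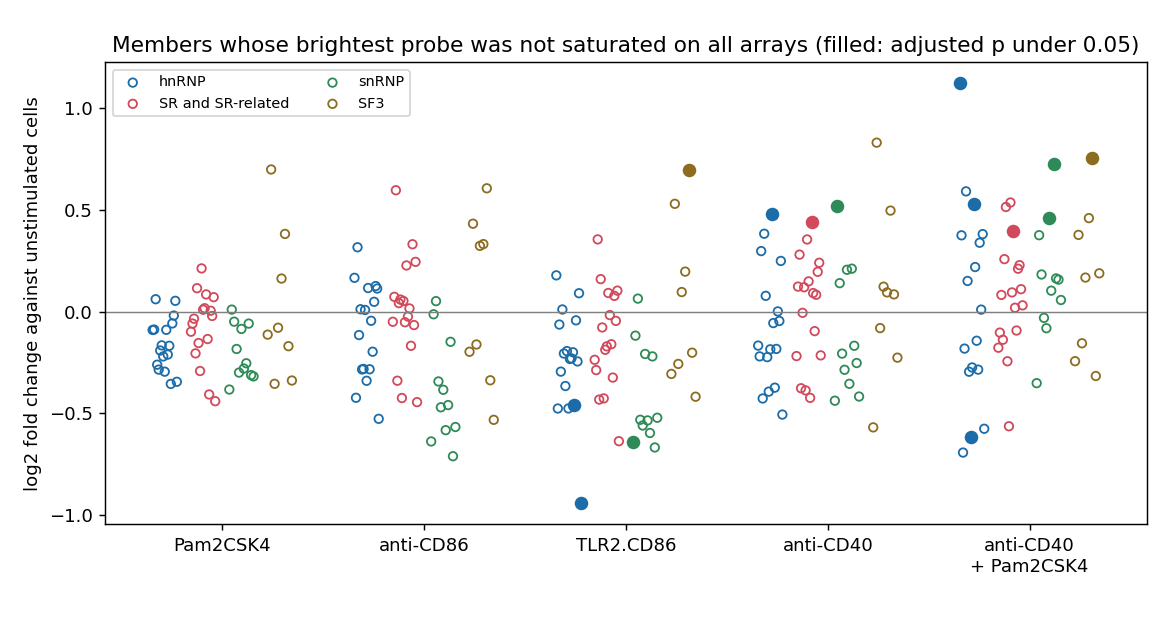
Log2 fold change against unstimulated cells (vertical axis) for the 53 members whose brightest probe was tested and not saturated on all arrays, by condition (horizontal axis) and family (colour). Each point is 1 gene, filled where the adjusted p was under 0.05. The comparisons share the 2 unstimulated arrays. Filled points number 0, 0, 4, 3 and 7 from left to right, and Hnrnpa0 with anti-CD40 and Pam2CSK4 lies highest at 1.12.

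With anti-CD40 and Pam2CSK4, 6 members rose against unstimulated cells and 1 fell. The risers were Hnrnpa0, Sf3b3, Snrpd3, Hnrnpr, Snrpd1 and Sfrs3, and Hnrnph3 fell. The 7 of 53 members called (13.2%) compare with 18.2% of all probes, and those higher (6 of 53) with 8.54%. The median member fold was 0.10 and that of all probes 0.01. None of the 7 was called when either array of this condition or either unstimulated array was left out. Under the slide block, 28 members were called, 17 of them higher, against 47.5% of all probes called and 23.8% higher. By family these were 13 of 17 hnRNPs, 6 of 17 SR and SR-related genes, 5 of 11 snRNP proteins and 4 of 8 SF3 subunits.

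Hnrnpa0, an hnRNP that binds AU-rich elements of mRNAs, changed most. Its log2 signal was 3.52 and 3.46 in unstimulated cells, 3.56 and 3.23 with Pam2CSK4, 3.85 and 3.45 with anti-CD86, 3.84 and 3.48 in TLR2.CD86 cells, 3.53 and 3.11 with anti-CD40, and 4.62 and 4.59 with anti-CD40 and Pam2CSK4. Both arrays of the last condition lay above all others, and those of the other conditions overlapped. The fold was 1.12 ± 0.21 (SE, n = 2 and 2, adjusted p = 0.00919) against unstimulated cells, 1.21 ± 0.21 (adjusted p = 0.0115) against Pam2CSK4 and 1.29 ± 0.21 (adjusted p = 0.0187) against anti-CD40. Its second probe had a fold of 0.88 (adjusted p = 0.054).

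Hnrnpr, an hnRNP close in sequence to Syncrip, rose with anti-CD40 with or without Pam2CSK4. Its log2 signal was 3.50 and 3.62 in unstimulated cells, 3.50 and 3.45 with Pam2CSK4, 3.69 and 3.66 with anti-CD86, 3.38 and 3.28 in TLR2.CD86 cells, 4.10 and 3.98 with anti-CD40, and 4.11 and 4.08 with anti-CD40 and Pam2CSK4. The 4 anti-CD40 arrays lay above the other 8. The fold against unstimulated cells was 0.48 ± 0.10 (adjusted p = 0.0223) with anti-CD40 and 0.53 ± 0.10 (adjusted p = 0.0113) with anti-CD40 and Pam2CSK4. Hnrnph3, of the hnRNP H and F group that binds G-rich RNA, went the other way. Its signal was 5.17 and 5.20 in unstimulated cells, 5.05 and 4.88 with Pam2CSK4, 5.18 and 5.20 with anti-CD86, 5.08 and 4.90 in TLR2.CD86 cells, 4.92 and 4.67 with anti-CD40, and 4.60 and 4.54 with anti-CD40 and Pam2CSK4. The fold in the last condition was -0.61 ± 0.13 (adjusted p = 0.0137). With anti-CD40 alone it was -0.39 (adjusted p = 0.0695), or -0.32 (adjusted p = 0.0175) in the slide-blocked fit.

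With anti-CD40 and Pam2CSK4, Hnrnpc, which binds uridine tracts, had a fold of 0.59 (adjusted p = 0.0719) against unstimulated cells and 0.87 ± 0.19 (adjusted p = 0.0278) against Pam2CSK4. In the same comparison with unstimulated cells the folds were 0.38 for Hnrpl, 0.22 for Hnrnpu, 0.15 for Hnrnpd, 0.01 for Hnrph1, -0.18 for Hnrnpa2b1 and -0.27 for Hnrnpm, none of them called without the block. The unsaturated second probe of Hnrnpk, a poly(C)-binding hnRNP, rose by 0.42 (adjusted p = 0.0316). The second probe of Hnrnpa3 had a fold of 0.24, with an adjusted p of 0.267 without the block and 0.00977 with it. The unsaturated second probe of Hnrnpu had a fold of -0.13 here (adjusted p = 0.698), opposite in sign to the brightest. In TLR2.CD86 cells it had -0.82 (adjusted p = 0.031), where the brightest Hnrnpu probe had -0.23 (adjusted p = 0.451).

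Sfrs3, the smallest classical SR protein, was the only gene of the SR group called against unstimulated cells without the block. Its log2 signal was -0.26 and -0.30 in unstimulated cells, -0.18 and -0.20 with Pam2CSK4, -0.25 and -0.35 with anti-CD86, -0.34 and -0.25 in TLR2.CD86 cells, 0.23 and 0.10 with anti-CD40, and 0.11 and 0.13 with anti-CD40 and Pam2CSK4. The 4 anti-CD40 arrays were the only ones above 0. The fold was 0.44 ± 0.10 (adjusted p = 0.0261) with anti-CD40 and 0.39 ± 0.10 (adjusted p = 0.0321) with anti-CD40 and Pam2CSK4. Sfrs2 had a fold of 0.54 in the latter condition, which passed in the slide-blocked fit (adjusted p = 0.00107) and not in the other (adjusted p = 0.122). Its dimmer probes had folds of 0.10 and 0.25 there (adjusted p = 0.179 and 0.0463 in the slide-blocked fit). Folds of Sfrs1, Sfrs4, Sfrs5, Sfrs6 and Sfrs7 lay between -0.18 and 0.23 there, none called without the block.

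Of the SF3 subunits, Sf3b3, a large scaffold of the SF3B complex, had a higher mean under every stimulation. Its log2 signal was 1.95 and 1.94 in unstimulated cells, 2.38 and 2.26 with Pam2CSK4, 2.58 and 2.51 with anti-CD86, 2.75 and 2.52 in TLR2.CD86 cells, 2.64 and 2.23 with anti-CD40, and 2.68 and 2.71 with anti-CD40 and Pam2CSK4. Both unstimulated arrays lay below the 10 others. The fold was 0.75 ± 0.15 (adjusted p = 0.0124) with anti-CD40 and Pam2CSK4 and 0.69 ± 0.15 (adjusted p = 0.0305) in TLR2.CD86 cells. It was 0.38, 0.61 and 0.50 with Pam2CSK4, anti-CD86 and anti-CD40, which were called only in the slide-blocked fit. Sf3b2, another SF3B subunit, was likewise called in all 5 comparisons only in that fit, at 0.27 to 0.50. Sf3b1, the subunit next to the branch site, had folds of -0.08 to 0.32, and Sf3a3 of -0.35 to -0.08, with none called without the block.

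With anti-CD40 alone 3 members rose, Hnrnpr, Sfrs3 and Snrpa1, and none fell. The 3 of 53 compare with 16.8% of all probes called and 6.16% higher. The median fold was -0.05 for members and -0.02 for all probes. Snrpa1, the A-prime protein of the U2 snRNP, had signals of 3.03 and 3.06 in unstimulated cells, 3.14 and 2.97 with Pam2CSK4, 3.04 and 3.02 with anti-CD86, 3.01 and 2.85 in TLR2.CD86 cells, 3.61 and 3.51 with anti-CD40, and 3.40 and 3.44 with anti-CD40 and Pam2CSK4. The fold was 0.52 ± 0.11 (adjusted p = 0.0207), and with Pam2CSK4 added it was 0.37 (adjusted p = 0.0523, or 0.00214 in the slide-blocked fit). Within slide 1 the anti-CD40 folds of Hnrnpr, Sfrs3 and Snrpa1 were 0.53, 0.51 and 0.57. The count was 9 and 1 without the array of slide 1 or slide 2, and 0 without either unstimulated array. Scaled to the array median, the 3 folds were below 0, as was the median of all probes at -0.58. With the slide as a block, 21 members were called, 12 of them higher, against 37.3% of all probes and 15.7% higher. Among these were Hnrnpc at 0.54 and Sfrs12 at 0.45, and, lower, Sf3a1 at -0.44 and Hnrnpa2b1 at -0.35. The fall of Sf3a1 rests on its brightest probe, since its second probe had a slide-blocked fold of 0.03 (adjusted p = 0.785).

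**Figure D2:**
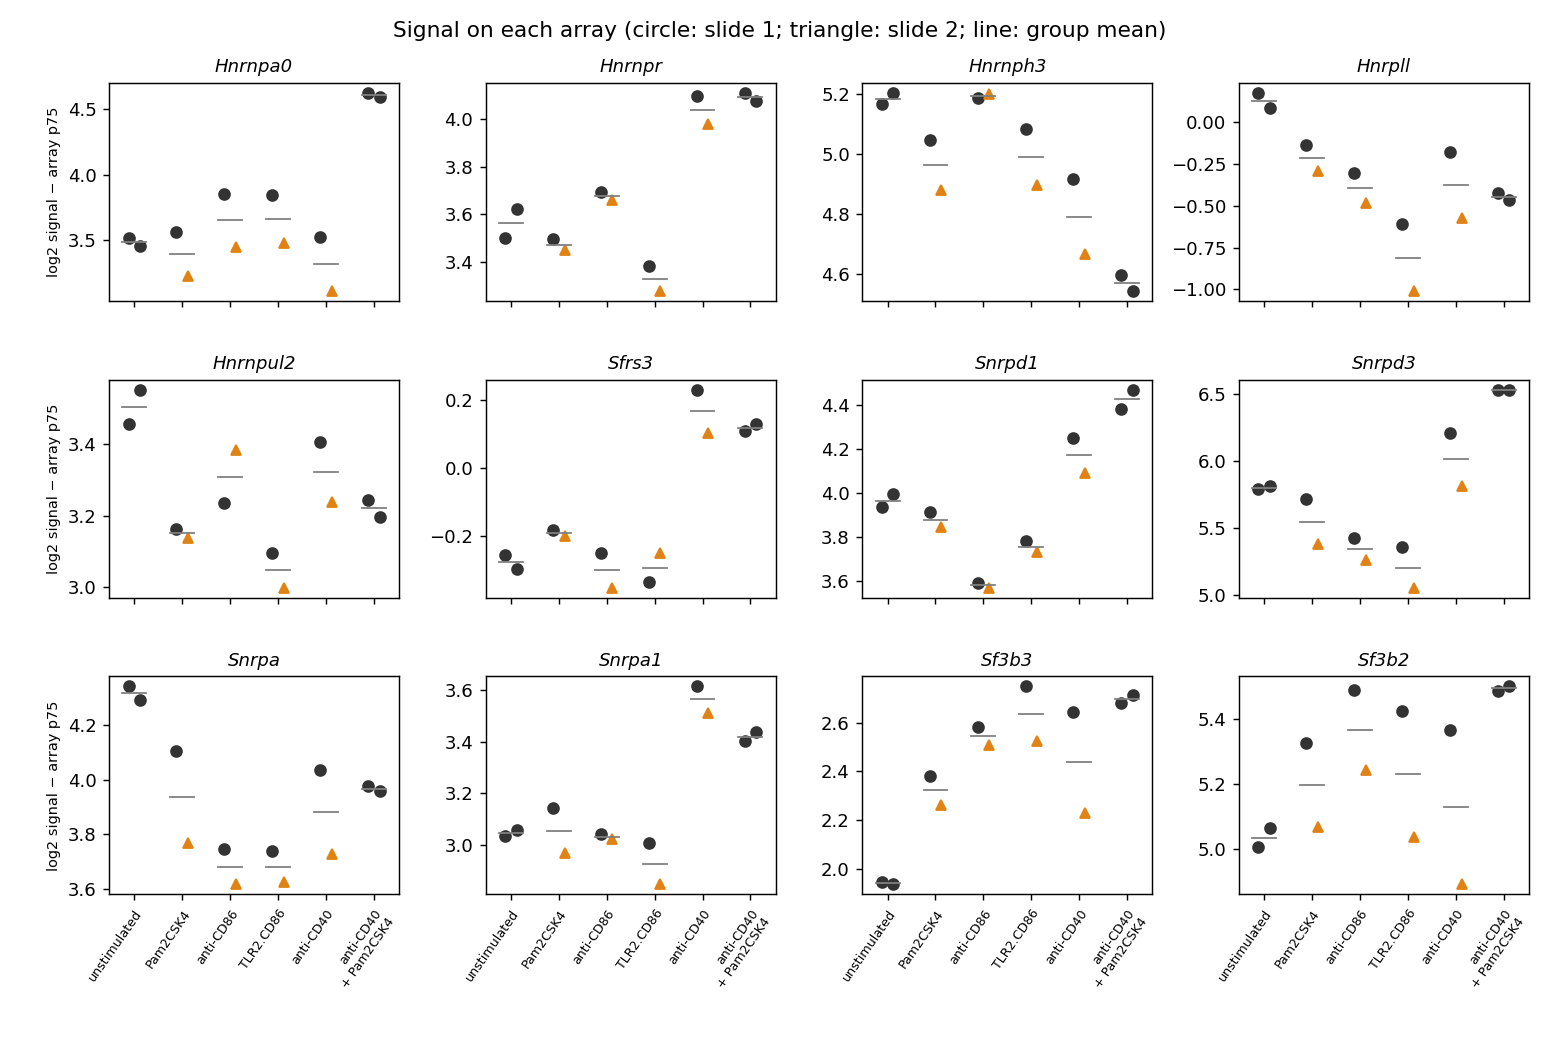
Log2 signal over the array's 75th percentile (vertical axis, own scale for each gene) on all 12 arrays, by condition (horizontal axis). Circles are arrays of slide 1, triangles arrays of slide 2 and lines group means of 2 arrays. Hnrnpa0 stands out with anti-CD40 and Pam2CSK4 (4.62 and 4.59), the triangles mostly lie below the circles of their condition, and both unstimulated arrays of Sf3b3 lie below all others.

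TLR2.CD86 cells differed from unstimulated cells in 4 members, of which Hnrpll, Snrpa and Hnrnpul2 fell and Sf3b3 rose. This is 4 of 53 against 10.8% of all probes, and 1 higher against 3.41%. The 3 of 53 members that were lower compare with 2332 of the 31599 probes tested. The median fold was -0.21 for members and -0.03 for all probes, or -0.14 and -0.01 with the slide as a block. Hnrpll, known as the repressor of CD45 variable exons in activated lymphocytes, fell most. Its log2 signal was 0.18 and 0.09 in unstimulated cells, -0.13 and -0.29 with Pam2CSK4, -0.31 and -0.49 with anti-CD86, -0.61 and -1.01 in TLR2.CD86 cells, -0.18 and -0.57 with anti-CD40, and -0.42 and -0.47 with anti-CD40 and Pam2CSK4. Both TLR2.CD86 arrays were the lowest of the 12, and both unstimulated arrays were the highest. The slide-blocked fit also called Hnrpll lower with anti-CD86 at -0.38, anti-CD40 at -0.36 and anti-CD40 with Pam2CSK4 at -0.58. With Pam2CSK4 alone it was -0.20 in that fit and not called. The fold in TLR2.CD86 cells was -0.94 ± 0.18 (adjusted p = 0.0222), and -0.74 within slide 1. Snrpa, the A protein of the U1 snRNP, changed by -0.64 ± 0.15 (adjusted p = 0.0386) and Hnrnpul2 by -0.46 ± 0.11 (adjusted p = 0.0413), or -0.58 and -0.41 within slide 1. The fall of Snrpa rests on 1 of its 4 probes tested, since the others had folds of -0.07, -0.01 and -0.09, none called, and the mean of its probes -0.20 (adjusted p = 0.36). The second probes of Hnrpll and Hnrnpul2 had folds of -0.88 (adjusted p = 0.0616) and -0.56 (adjusted p = 0.0204). Left without the slide 1 or the slide 2 array of the condition, 1 and 0 were called, and 0 without either unstimulated array. With the slide as a block, 21 members were called, 4 of them higher, against 35.1% of all probes and 14.5% higher. The other 17 were lower, as were 20.6% of all probes.

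No member was called with anti-CD86 alone (2.17% of all probes) or with Pam2CSK4 alone (0.146%). There 17 and 6 of 53 members (32.1% and 11.3%) had an unadjusted limma p under 0.05, against 23.2% and 15.8% of all probes. The slide-blocked fit gave calls for 17 members with anti-CD86, 5 of them higher, against 28.5% of all probes and 13.0% higher. Sfrs12, the splicing regulator now named Srek1, was highest at 0.76 (adjusted p = 0.00177). Pam2CSK4 gave 3 in that fit, against 11.1% of all probes, which were Sf3b3 at 0.49, Sf3b2 at 0.33 and Sfrs9 at -0.29.

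In the slide-blocked fit 7 of 11 snRNP proteins were lower with anti-CD86 and none higher, where 15.5% of all probes were lower. In TLR2.CD86 cells these counts were also 7 and 0, where 20.6% of all probes were lower. Of the Sm ring proteins, Snrpf had folds of -0.53 ± 0.06 (adjusted p = 0.00312) and -0.48 ± 0.06 (adjusted p = 0.00246), in that order of conditions. Folds were -0.42 and -0.38 for Snrpd2, -0.40 and -0.35 for Snrpg, and -0.31 and -0.45 for Snrpd3. Within slide 1 the anti-CD86 folds of these 4 genes were -0.56, -0.45, -0.42 and -0.38. With no block, Snrpa in TLR2.CD86 cells was the only one called at its brightest probe in these conditions, so the counts rest on the block. The second probe of Snrpb2 was called in TLR2.CD86 cells without the block, at -0.78 (adjusted p = 0.0281). Its brightest probe had -0.53 there (adjusted p = 0.08). Snrpb had blocked folds of 0.17 and 0.18, and Snrpe of -0.07 and -0.14, with none called.

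With anti-CD40 and Pam2CSK4, the Sm proteins Snrpd3 and Snrpd1 rose. The log2 signal of Snrpd3 was 5.79 and 5.81 in unstimulated cells, 5.72 and 5.38 with Pam2CSK4, 5.42 and 5.26 with anti-CD86, 5.36 and 5.05 in TLR2.CD86 cells, 6.21 and 5.82 with anti-CD40, and 6.53 and 6.52 with anti-CD40 and Pam2CSK4. Both arrays of the last condition were the highest of the 12, and the Pam2CSK4, anti-CD86 and TLR2.CD86 arrays lay below the unstimulated ones. The fold was 0.73 ± 0.18 (adjusted p = 0.0271), and 0.90 (adjusted p = 0.00593) on its second probe. Snrpd1 had signals of 3.94 and 3.99 in unstimulated cells, 3.91 and 3.85 with Pam2CSK4, 3.59 and 3.57 with anti-CD86, 3.78 and 3.73 in TLR2.CD86 cells, 4.25 and 4.09 with anti-CD40, and 4.38 and 4.47 with anti-CD40 and Pam2CSK4, and a fold of 0.46 ± 0.10 (adjusted p = 0.0198). Snrpd2, Snrpe, Snrpf and Snrpg had folds of 0.10, 0.16, 0.16 and 0.06, none called in either fit.

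**Figure D3:**
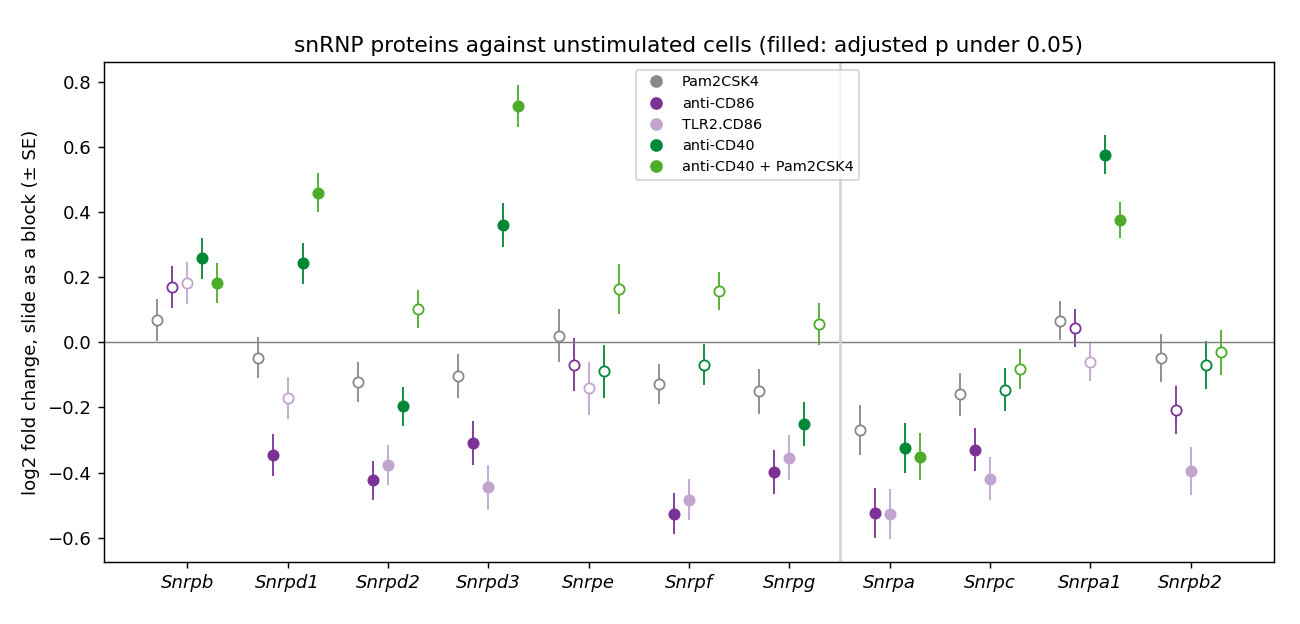
Log2 fold change against unstimulated cells from the slide-blocked fit (vertical axis, error bars are SE) for the 11 snRNP proteins tested (horizontal axis, Sm ring proteins left of the line), by condition (colour). Filled points passed the threshold of 0.05. Snrpd3 runs from -0.45 in TLR2.CD86 cells to 0.73 with anti-CD40 and Pam2CSK4, and Snrpf from -0.53 with anti-CD86 to 0.16.

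The comparison of both combinations sets anti-CD40 against anti-CD86 directly and was added after the data were seen. Between anti-CD40 with Pam2CSK4 and TLR2.CD86, 9 of 53 members were called and all 9 were higher in the former, against 12.3% of all probes called and 7.48% higher. They were Snrpd3 at 1.32 ± 0.18 (adjusted p = 0.00406), Hnrnpa0 at 0.94, Hnrnpa1 at 0.85, Snrpf at 0.82, Hnrnpr at 0.76, Snrpd1 at 0.67, Sfrs9 at 0.67, Snrpa1 at 0.49 and Sfrs3 at 0.41. The Hnrnpa1 value rests on its brightest probe, since the mean of its probes gave 0.11 (adjusted p = 0.524), and by the mean of probes Hnrnpa0 at 0.77 (adjusted p = 0.0809) and Sfrs9 (adjusted p = 0.0519) were not called. The median fold was 0.26 for members, 0.50 for the 11 snRNP proteins and 0.04 for all probes, or 0.18, 0.41 and 0.04 with the slide as a block. In the slide-blocked fit 25 members were called, 22 of them higher, against 34.6% and 19.5% of all probes, and 9 of 11 snRNP proteins were higher. The count without 1 of the 4 arrays ranged from 2 to 8, and it was lowest without either array of anti-CD40 with Pam2CSK4 (3 and 2), with 4 left without the slide 2 array of TLR2.CD86. Between anti-CD40 and anti-CD86 alone, Sfrs3, Snrpa1 and Snrpd1 were called (3 of 53, against 10.1% of all probes) and all were higher with anti-CD40. None was called without either anti-CD86 array, and 21 were in the slide-blocked fit, against 34.8% of all probes.

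Without the block, few members were called between a combination and its single signals. Against Pam2CSK4 alone, anti-CD40 with Pam2CSK4 was higher in 5 members (9.97% of all probes were called), Hnrnpa0, Snrpd3 at 0.98, Hnrnpc, Hnrnpr at 0.62 and Snrpd1 at 0.54. Against anti-CD40 alone it was higher in Hnrnpa0 only (2.91% of all probes). Neither comparison called a member without either array of the combination or without the slide 2 array of the single signal, and 4 were called in the second without the slide 1 array of anti-CD40. TLR2.CD86 differed in no member from Pam2CSK4 (0.0633% of all probes) or from anti-CD86 (0.225%). At an unadjusted limma p under 0.05 there were 2 and 5 members, against 10.4% and 8.90% of all probes. The slide-blocked fit called more. There 22 members differed from Pam2CSK4 and 10 from anti-CD40 with anti-CD40 and Pam2CSK4, against 31.5% and 15.2% of all probes. In that fit TLR2.CD86 differed from Pam2CSK4 in 9 members and from anti-CD86 in 6, against 11.0% and 7.74% of all probes. Interactions, the effect of both signals minus the sum of the single effects, called no member for anti-CD86 (0.0190% of all probes) or anti-CD40 (1.16%). Their members at an unadjusted limma p under 0.05 numbered 0 and 10 (18.9%), against 4.29% and 19.4% of all probes. In the slide-blocked fit the anti-CD40 interaction was called for 6 members, against 8.59% of all probes. These were Hnrnpa0 at 1.00 ± 0.08 (adjusted p = 0.00228), Hnrnpa1, Snrpd2, Snrpd3 and Snrpg above 0 and Sfrs12 below it.

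Several genes gave other folds on other probes. Of 27 genes with several probes tested, none had called probes of opposite sign without the block. With the block, Hnrnpa1, known as a repressor of splice sites, and Snrpa did with anti-CD40 and Pam2CSK4, and Sfrs11 did in TLR2.CD86 cells. The brightest Hnrnpa1 probe had a fold of 0.37 (adjusted p = 0.087) with anti-CD40 and Pam2CSK4, and the second probe -0.66 (adjusted p = 0.0291). For Snrpa these were -0.35 and 0.29, neither called without the block. In TLR2.CD86 cells the blocked folds of the brightest and second Sfrs11 probes were -0.21 and 0.31. With anti-CD40 and Pam2CSK4 they were -0.10 and 0.70 (adjusted p = 0.64 and 0.0439, without the block). In the same condition dimmer probes of Sfrs8 and Sfrs7 rose by 0.87 (adjusted p = 0.00433) and 0.60 (adjusted p = 0.0374), where the brightest had 0.11 and 0.23. The first 30 bases of the probes shown above differ, and whether they read different transcripts was not tested.

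**Figure D4:**
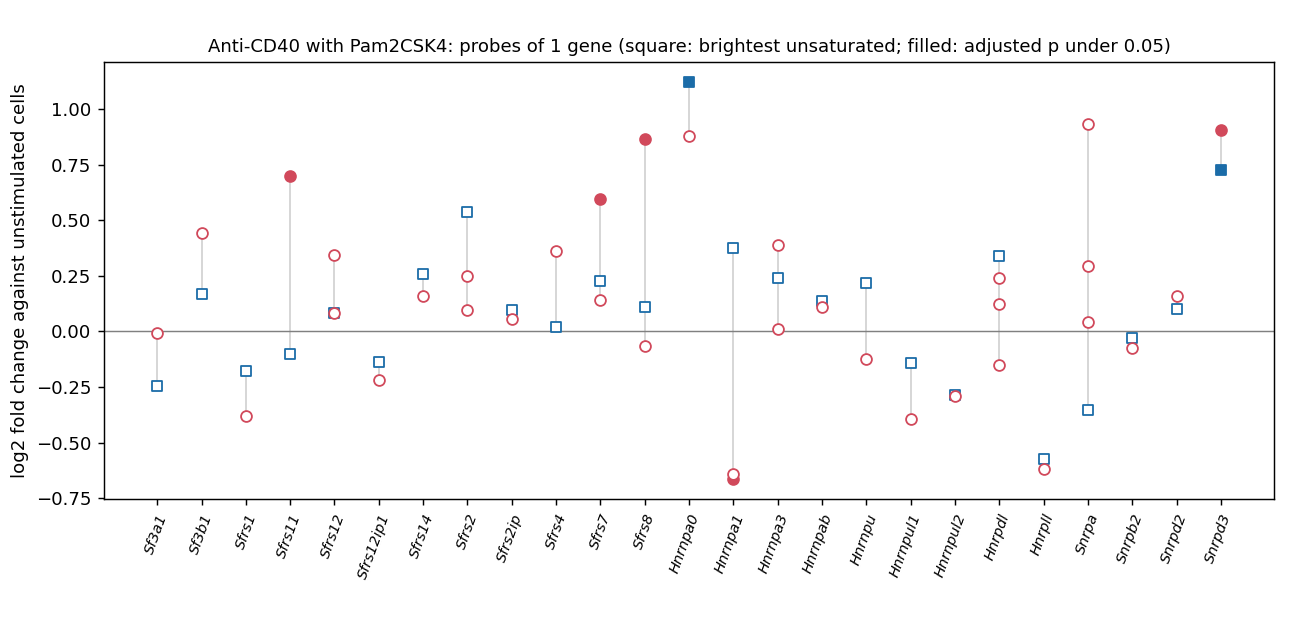
Log2 fold change of anti-CD40 with Pam2CSK4 against unstimulated cells (vertical axis) for the 60 unsaturated probes of the 25 genes with more than 1 such probe (horizontal axis). Squares are the brightest unsaturated probe, circles the others, and filled symbols had an adjusted p under 0.05. Probes of Snrpd3 and Hnrnpa0 lie together above 0.7, whereas those of Hnrnpa1 lie at 0.37, -0.66 and -0.64.

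Other genes of splicing and related RNA processing were taken from 7 lists, with 118 genes measured. Without the block, 12 rose and 8 fell with anti-CD40 and Pam2CSK4, which is 16.9% of the genes against 18.2% of all probes. Of the RNA-binding regulators, 5 of 33 rose and 5 fell, and Taf15 (1.27), Syncrip (1.20) and Raly (1.12) were among those that rose. Of 16 snRNP assembly genes, Gemin4 (1.39) and Wdr77 (1.05), both of which serve Sm ring assembly, rose and Gemin8 (-0.37) fell. Of 11 branch site genes, Rbm17 (1.20) and U2af2 (1.12), the large U2AF subunit, rose. Of 26 tri-snRNP and related genes, 3 rose, among them Ddx23 (1.28) and Snrnp48 (0.52), and Prpf18 fell (-0.52). Of 10 Lsm genes, Lsm10 fell (-0.64), and none was called among 13 SR kinase and SR-related or 9 exon junction genes, where the slide-blocked fit called 7 and 2, all higher. In TLR2.CD86 cells 8 of the 118 fell and none rose (6.78% against 10.8% of all probes), among them Taf15 (-0.62), Lsm5 (-0.64) and Snrnp35 (-0.61). With anti-CD40 alone 6 rose and 8 fell (11.9% against 16.8%), and with Pam2CSK4 or anti-CD86 alone none was called. The slide-blocked fit called 6 higher and 14 lower with Pam2CSK4, 26 and 22 with anti-CD86, 16 and 37 in TLR2.CD86 cells, 31 and 16 with anti-CD40, and 43 and 19 with anti-CD40 and Pam2CSK4. These are 16.9%, 40.7%, 44.9%, 39.8% and 52.5% of the 118, against 11.1%, 28.5%, 35.1%, 37.3% and 47.5% of all probes.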

How the data were processed

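RNA of RB cells was hybridised by the authors to 12 one-colour (Cy3) custom mouse arrays, 2 for each of 6 conditions. Per the file headers, images were read with Feature Extraction 10.5.1.1. The deposited processed signal intensity had local background removed and was not scaled from array to array. The authors also deposited log2 values, which equalled the log2 processed intensity minus 1 constant per array near its 75th percentile.

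Control spots and outlier spots were left out, spots of a probe were averaged, and each array's 75th percentile was subtracted on the log2 scale. A probe was tested if both arrays of some group measured it well above background (31669 of 61307), but 70 of these with a missing value were left out. The median array intensity (17.3 to 51.3) lay near the lowest intensity well above background (19.5 to 32.9). The number of arrays limits the precision. limma 3.58.1 in R 4.3.3 was fitted with 1 coefficient per group, and tested on simulated data. Python 3.11.15, pandas 2.3.3, numpy 2.4.6 and matplotlib 3.10.9 were used for tables and figures. Saturated probes were left out of member counts, which was decided after the data were seen, as were the comparisons of anti-CD40 with anti-CD86 and the alternative with the brightest unsaturated probe. Alternatives were median and quantile normalization, normexp with an offset of 50, the authors' log2 values, other filters, slide and replicate blocks, slide 1 alone, the mean of a gene's probes, the one way test of the methods, and leaving out each array.

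Members, lists and the rule for named genes were chosen with earlier results of these data known. The rule named the 3 highest and 3 lowest members called per comparison, members called in 3 or more comparisons, the brightest and dimmest of each family (not used, since levels are not compared between genes), a list of common splicing factors, genes with opposed probes, and members called only with the slide as a block. The labels give female mice of 6 weeks and the methods mice of both sexes. The isotype control was not analysed here.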

Additional observations from a re-analysis of the deposited data

How the results depend on the processing

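Counts of members called follow in a fixed order: against unstimulated cells, Pam2CSK4, anti-CD86, TLR2.CD86, anti-CD40, and anti-CD40 with Pam2CSK4 (0, 0, 4, 3 and 7 as reported); TLR2.CD86 against Pam2CSK4 and anti-CD86 (0 and 0); anti-CD40 with Pam2CSK4 against Pam2CSK4, anti-CD40 and TLR2.CD86 (5, 1 and 9); anti-CD40 against anti-CD86 (3); the anti-CD40 interaction (0); and any difference (8). The slide block gave 3, 17, 21, 21, 28, then 9 and 6, then 22, 10, 25, then 21, 6 and 40. Slide 1 alone gave 0, 0, 15, 11, 26, then 0 and 0, then 8, 1, 18, then 7 and 0. Normexp gave 0, 2, 11, 10, 11, then 0 and 0, then 7, 2, 10, then 6, 0 and 14. Quantile normalization gave 0, 4, 6, 8, 15, then 0 and 0, then 10, 2, 11, then 8, 1 and 16. Probes well above background on all arrays gave 0, 1, 8, 5, 9, then 0 and 0, then 6, 2, 11, then 5, 0 and 12. Median normalization called none of them, and no filter only 1 with anti-CD40 and Pam2CSK4 and 3 against TLR2.CD86. The mean of a gene's probes, the brightest unsaturated probe and the authors' log2 values stayed within 1.5 times of the reported counts, except 0 against anti-CD40 for the mean of probes. The one way test named in the methods called 8 members adjusted and 20 unadjusted of 53, and 35.4% of all probes unadjusted. The anti-CD86 interaction called none under any of these. The causes were not tested.

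The replicate number as a block gave 0, 8, 14, 10, 15, then 0 and 0, then 11, 2, 20, then 8, 1 and 17. The labels do not pair the samples by number. Same-numbered arrays deviated together (r 0.54 to 0.67) among the 4 conditions that span both slides, where number and slide coincide, and not in pairs with unstimulated cells or anti-CD40 with Pam2CSK4 (-0.11 to 0.07).

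Leaving out 1 array at a time gave 0 to 0 for Pam2CSK4 and anti-CD86, 0 to 1 for TLR2.CD86, 0 to 9 for anti-CD40 and 0 to 0 for anti-CD40 with Pam2CSK4. It gave 0 to 4 for anti-CD40 with Pam2CSK4 against either single signal, 2 to 8 against TLR2.CD86, 0 to 4 for anti-CD40 against anti-CD86, 0 to 3 for the anti-CD40 interaction and 1 to 13 for any difference. A lone array was assumed to vary like the other groups.

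Of 32 gene and comparison pairs called, 29 kept their direction under every alternative run. With median normalization the anti-CD40 folds of Sfrs3, Hnrnpr and Snrpa1 turned to -0.127, -0.0919 and -0.0495. That scaling moved the median fold of all probes by -0.19, -0.14, -0.29, -0.57 and -0.11 for Pam2CSK4, anti-CD86, TLR2.CD86, anti-CD40 and anti-CD40 with Pam2CSK4, so relative to the median those 3 genes stayed higher.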
